A study of Mus musculus with 10 samples.

Results

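The complement components and complement receptors described here are 8 mouse genes, namely C1qa, C1qb, C1qc, C3, C4b, Itgam, C3ar1 and C5ar1, out of 35042 genes and unnamed transcripts on the arrays. They were selected by gene name from the annotation of the arrays, and all 8 were found, on 11 probes. The choice was made with earlier results on these arrays known, so the differences of these 8 genes between groups are descriptions and carry no test. Of the 11 probes, 3 belong to Itgam, 2 to C3 and 1 to each other gene. All 8 genes passed the filter on dim probes, which kept the 32209 genes and transcripts whose signal stood well above background on 2 or more of the 10 arrays.

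Complement is a cascade of secreted proteins that tags cells, debris and synapses for removal. C1q, built of the A, B and C chains that C1qa, C1qb and C1qc encode, starts the classical pathway. C4 and C2 then form the enzyme that splits C3, and the C3 fragment left on a surface is read by receptors on phagocytes. In the brain, microglia are a main source of C1q, and the complement receptor CR3 on microglia takes part in the removal of tagged synapses.

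The cells came from midbrains of MPTP-treated mice, MPTP being a neurotoxin that kills dopaminergic neurons. Haematopoietic stem and progenitor cells from donor bone marrow had been grafted over the substantia nigra on one side, 3 days after the last MPTP dose, and the cells were sorted 1 week later. All groups share the MPTP treatment and the graft, and no array of brain without them was analysed here. RFP+YFP+ cells are hybrids of a graft cell and a recipient cell, and RFP+ cells are called unfused.

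The 10 arrays form 5 groups of 2 replicates, and each replicate pools samples of 2 mice. FoxA2-Cre hybrids came from recipients whose Cre is driven by FoxA2, a transcription factor of the ventral midbrain, grafted with cells carrying the R26Y reporter, in which Cre switches YFP on. GFAP-Cre hybrids came from recipients whose Cre is driven by GFAP, an astrocyte filament protein, grafted with the same kind of cells. R26Y hybrids came from recipients that carry the reporter themselves, grafted with cells carrying Cre and RFP. FoxA2-Cre unfused cells are the counterpart of the FoxA2-Cre hybrids, and pooled unfused cells from R26Y and GFAP-Cre recipients are that of both other hybrid types. Where Cre lies in the recipient, YFP reports fusion with Cre-expressing cells alone, so that red-only cells can include other fused cells. Ages and sexes of the mice are not given in the sources used here.

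The 4 FoxA2-Cre arrays were on 1 slide and the other 6 on another, so recipient set and slide cannot be told apart. The share of spots that stood well above background was 34.6% and 19.8% on FoxA2-Cre hybrid arrays and 49.2% and 34.8% on FoxA2-Cre unfused arrays. It was 84.1% and 64.3% on R26Y hybrid arrays, 81.4% and 82.4% on GFAP-Cre hybrid arrays, and 82.8% and 86.7% on pooled unfused arrays. The dimmest array, FoxA2-Cre hybrids replicate 2, had 3 of the 8 genes well above background, and R26Y hybrids replicate 1 and both pooled unfused arrays had all 8. Levels are given as log2 of a probe's signal relative to that array's 75th percentile among the spots bright on every array, so that 0 marks this percentile. Levels of different probes cannot be compared as amounts of RNA, since each probe has its own brightness, and a sum over a list weights its brightest probes most. P-values and SEs rest on the spread between replicates, pooled over all groups of a fit and not taken from the compared groups alone. The limma fit also moves each gene's spread towards that typical of all genes, so an SE is not the gene's own spread alone. In bulk RNA, fewer cells of a type and less RNA per cell cannot be told apart.

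The probe sequences show what each signal stands for. They are given 5′ to 3′ as the array files hold them, with positions on mouse genome build mm9 as in those files. Exon and UTR annotation of that build was not used here. The C1q chains lie beside each other on the minus strand of chromosome 4. The probe of C1qb covers chr4:136436578-136436637, that of C1qc chr4:136445766-136445825 and that of C1qa chr4:136452409-136452468. They are shown because the chains gave unlike results, with the first 30 of 60 bases for C1qc.
C1qa: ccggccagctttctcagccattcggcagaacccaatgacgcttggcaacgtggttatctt
C1qb: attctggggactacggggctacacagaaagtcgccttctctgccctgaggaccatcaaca
C1qc: tctgggaaccacctaatggtattattcctg

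The probes of C3 and Itgam are shown because probes of the same gene disagreed. Numbers name the base of the transcript at which the array files place each probe. Both C3 probes lie on the minus strand of chromosome 17, position 4887 at chr17:57343678-57343737 and position 5053 at chr17:57343416-57343475. The Itgam probes lie on the plus strand of chromosome 7, position 270 at chr7:135212140-135212199, position 3410 at chr7:135260275-135260334 and position 4431 at chr7:135261755-135261814. Capitals mark a run of CA repeats, and the probes at 5053 and 4431 are given by their first 30 bases.
C3 at 4887: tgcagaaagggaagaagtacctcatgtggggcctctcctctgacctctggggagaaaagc
C3 at 5053: attcacagaatctatggtggtttatggttg
Itgam at 270: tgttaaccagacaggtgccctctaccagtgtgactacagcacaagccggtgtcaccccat
Itgam at 3410: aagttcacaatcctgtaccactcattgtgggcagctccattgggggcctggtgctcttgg
Itgam at 4431: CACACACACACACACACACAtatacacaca

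Among the 8 genes, C3ar1 had the only log2 difference beyond 4 in size between a hybrid type and its unfused cells. Its probe lies on the minus strand at chr6:122798222-122798281, and its first 30 bases are shown.
C3ar1: tgccatcatctcagtgtagcacacacaatc

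**Figure D1:**
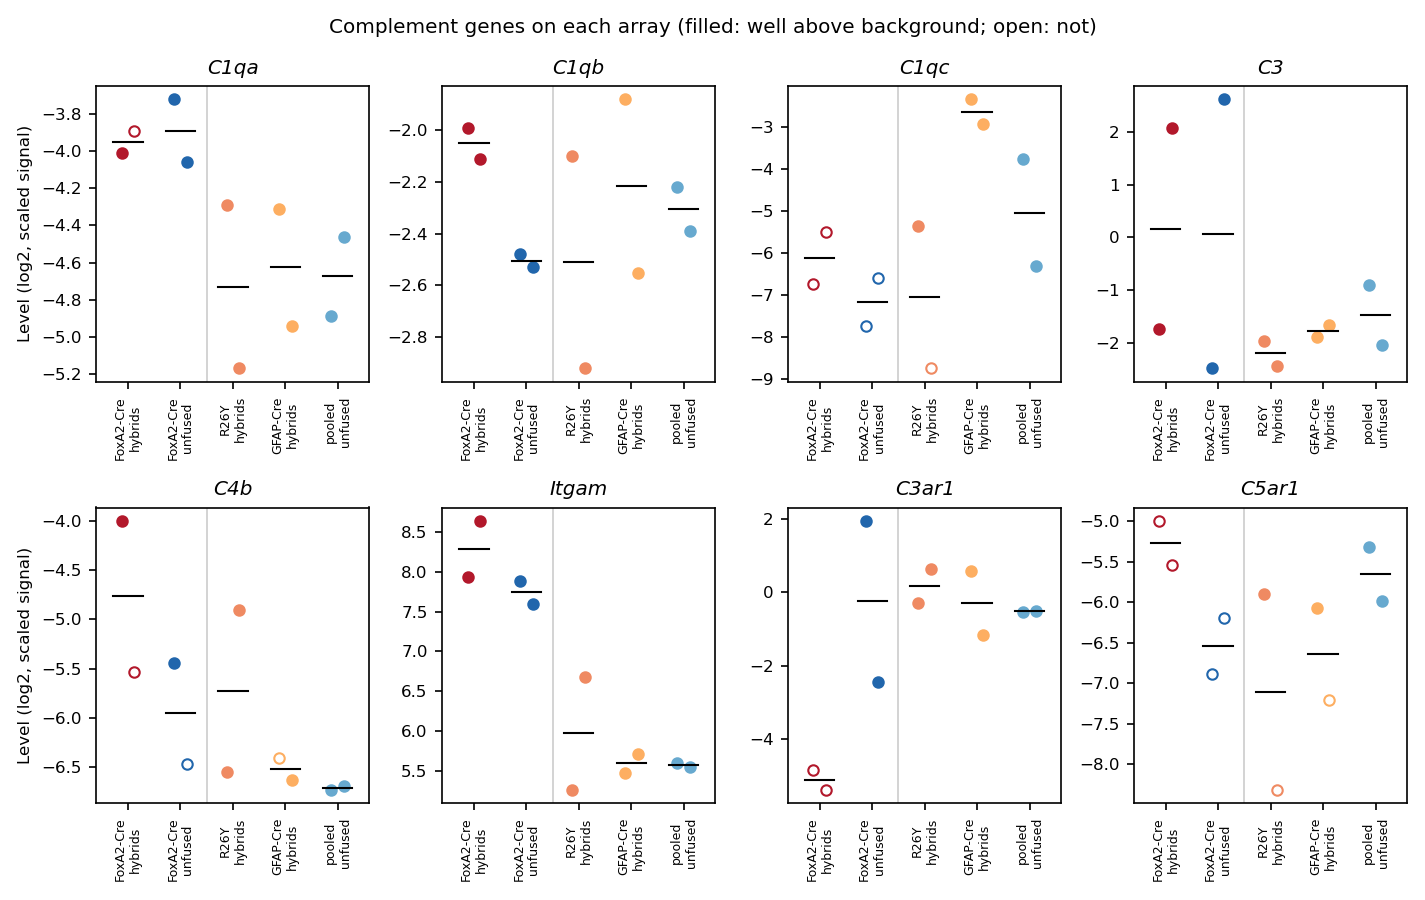
Level (log2 of the signal over the array's 75th percentile) of each of the 8 genes on the 10 arrays, 1 panel a gene with its own scale; points are arrays, black lines group means, and the grey line parts the 2 slides. C3ar1 is at -4.84 and -5.38 in FoxA2-Cre hybrids, both open points, and C1qc in GFAP-Cre hybrids is at -2.35 and -2.93, above the other 8 arrays.

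C1qa, the A chain of C1q, differed by less than 1 SE between each hybrid type and its unfused cells. Its level was -4.01 and -3.89 in FoxA2-Cre hybrids, the second array not well above background, against -3.72 and -4.06 in FoxA2-Cre unfused cells. On the other slide it was -4.29 and -5.17 in R26Y hybrids and -4.31 and -4.94 in GFAP-Cre hybrids, against -4.89 and -4.46 in pooled unfused cells. The arrays of all 3 hybrid types overlapped with those of their unfused cells. The log2 differences were -0.06 ± 0.54 for FoxA2-Cre hybrids, -0.05 ± 0.54 for R26Y hybrids and 0.05 ± 0.54 for GFAP-Cre hybrids (n = 2 each). The value after ± is the SE, which here and below draws on the spread of all 5 groups, moved towards that typical of all genes.

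C1qb, the B chain, was brighter than its array's background on all 10 arrays and also differed little. It was at -1.99 and -2.11 in FoxA2-Cre hybrids, against -2.48 and -2.53 in FoxA2-Cre unfused cells. Those arrays did not overlap, with the hybrids higher by 0.45 ± 0.52 on the log2 scale, less than 1 SE. The median of all genes in that comparison was 0.36. C1qb was at -2.1 and -2.92 in R26Y hybrids and at -1.88 and -2.55 in GFAP-Cre hybrids, against -2.22 and -2.39 in pooled unfused cells, so both hybrid types overlapped with the unfused cells.

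C1qc, the C chain, did not follow A and B. It was at -2.35 and -2.93 in GFAP-Cre hybrids, against -3.77 and -6.32 in pooled unfused cells. In R26Y hybrids it was at -5.36 and -8.75, the second array not well above background. The GFAP-Cre hybrid arrays were thus above all other arrays of the slide, while those of R26Y hybrids spanned a wider range than the unfused cells. The log2 differences from pooled unfused cells were 2.41 ± 1.25 for GFAP-Cre hybrids and -2.01 ± 1.25 for R26Y hybrids. On the FoxA2-Cre slide C1qc was well above background on 0 of 4 arrays, at -6.75 and -5.51 in FoxA2-Cre hybrids and -7.74 and -6.61 in FoxA2-Cre unfused cells, and no fold is given there.

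Between the 2 hybrid types of that slide, C1qc was higher in both GFAP-Cre arrays than in both R26Y arrays. The fitted log2 difference was 4.42 ± 1.25, given as a description, and it rests in part on an R26Y signal below background. The mean of the GFAP-Cre hybrids was 6.62-fold above R26Y hybrids replicate 1, where C1qc was measured, and at least 17.6-fold above replicate 2, taken at its background level. The fitted difference was 1.98 after normexp background correction and 2.24 in the authors' log2 matrix. Of the 8 genes, 0 passed the adjusted limma threshold of 0.05 in this comparison, against 0% of all genes. The arrays of the 2 hybrid types did not overlap for C1qc and, by its probe at 5053 but not by that at 4887, for C3, which is 2 of the 8 genes, against 27.7% of all genes.

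C1qc is measured on each array by 10 spots of the same probe, and the SD over these spots was between 0.095 and 0.281 on the log2 scale. The gap between the 2 replicates was 2.55 in pooled unfused cells and 3.39 in R26Y hybrids, far wider than the spread over spots. The C1q chains ran together only in part. After each slide's mean was subtracted, Pearson's r over the 10 arrays was 0.66 between C1qa and C1qb, 0.66 between C1qb and C1qc, and 0.29 between C1qa and C1qc. These arrays share their scaling, and with 2 replicates a group the values describe these libraries alone.

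C3, the central component that the pathways converge on, was measured by probes that gave unlike pictures of FoxA2-Cre cells. At position 5053 it was at -1.73 and 2.07 in FoxA2-Cre hybrids, against -2.48 and 2.62 in FoxA2-Cre unfused cells. Replicate 2 of both groups was thus high, by 3.8 over replicate 1 in hybrids and by 5.1 in unfused cells. At position 4887 the same arrays gave -1.4 and -0.48 in hybrids, against -1.88 and -1.88 in unfused cells, with no such gap. The probe at 5053 has 10 spots on each array, whose SD was at most 0.304.

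The log2 difference of C3 in FoxA2-Cre hybrids was 0.1 ± 1.7 at position 5053, where the arrays overlapped, and 0.94 ± 0.55 at position 4887, where they did not. On the other slide the probes were closer. At 5053 C3 was at -1.96 and -2.43 in R26Y hybrids and -1.88 and -1.66 in GFAP-Cre hybrids, against -0.9 and -2.04 in pooled unfused cells. At 4887 it was at -1.33 and -1.7 in R26Y hybrids and -1.12 and -1.47 in GFAP-Cre hybrids, against -1.07 and -1.21 in pooled unfused cells. The differences at 4887 were -0.38 ± 0.55 for R26Y hybrids and -0.16 ± 0.55 for GFAP-Cre hybrids.

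C4b, a C4 gene of the classical and lectin pathways, was dim. Its probe lies at chr17:34865328-34865387. It was at -4 and -5.53 in FoxA2-Cre hybrids and -5.44 and -6.47 in FoxA2-Cre unfused cells, with replicate 2 of each not well above background. It was at -6.55 and -4.9 in R26Y hybrids and at -6.41 and -6.63 in GFAP-Cre hybrids, against -6.73 and -6.69 in pooled unfused cells. The first GFAP-Cre hybrid array was not well above background. R26Y hybrids were above the unfused arrays by 0.98 ± 0.78 on the log2 scale. GFAP-Cre hybrids differed from them by 0.19 ± 0.78, from which no direction is read. FoxA2-Cre hybrids differed from their unfused cells by 1.19 ± 0.78. C4a, its near copy in the mouse genome, was not matched to a probe, and whether it adds to this signal was not tested.

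Itgam encodes CD11b, the alpha chain of CR3, the phagocyte receptor for the C3 fragment iC3b. Its brightest probe, at position 4431, carries a CA repeat of 20 bases and shares 20 bases with probes of 23 other genes. Of 35 probes with a CA run of at least 16 bases, 34 were well above background on all arrays, or 97.1%, against 16.5% of all 55681 probes. The level at 4431 is therefore given as that probe's signal and not as a level of Itgam.

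The other Itgam probes gave the following values. At position 3410 the level was -1.24 and -2.34 in FoxA2-Cre hybrids, against -2.22 and -3.01 in FoxA2-Cre unfused cells. It was -1.01 and -2.74 in R26Y hybrids and -1.32 and -2.19 in GFAP-Cre hybrids, against -1.54 and -1.11 in pooled unfused cells. The arrays overlapped in all 3 comparisons. At position 270 the level was -4.32 and -3.97 in FoxA2-Cre hybrids, neither well above background, against -3.54 and -3.46 in FoxA2-Cre unfused cells, which is at least 1.31-fold lower in the hybrids. There R26Y hybrids were at -2.34 and -3.27 and GFAP-Cre hybrids at -2.12 and -4.05, against -2.95 and -3.14 in pooled unfused cells, with overlap in both cases. The signal at 4431 was 7.93 and 8.64 in FoxA2-Cre hybrids, against 7.89 and 7.59 in FoxA2-Cre unfused cells. It was 5.26 and 6.68 in R26Y hybrids and 5.47 and 5.71 in GFAP-Cre hybrids, against 5.59 and 5.54 in pooled unfused cells.

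The Itgam probes did not give a common direction. In FoxA2-Cre hybrids the log2 difference was -0.65 ± 0.73 at 270, 0.83 ± 0.77 at 3410 and 0.55 ± 0.63 at 4431. In R26Y hybrids it was 0.24 ± 0.73, -0.55 ± 0.77 and 0.41 ± 0.63 in the same order. In GFAP-Cre hybrids all were under 1 SE, at -0.04 ± 0.73, -0.43 ± 0.77 and 0.03 ± 0.63. With slide means subtracted, r over the 10 arrays between 3410 and 4431 was -0.5. Between C1qb and Itgam r was 0.4 at 270, 0.81 at 3410 and -0.45 at 4431. At 3410 it was 0.68 for C1qa and 0.25 for C1qc.

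**Figure D2:**
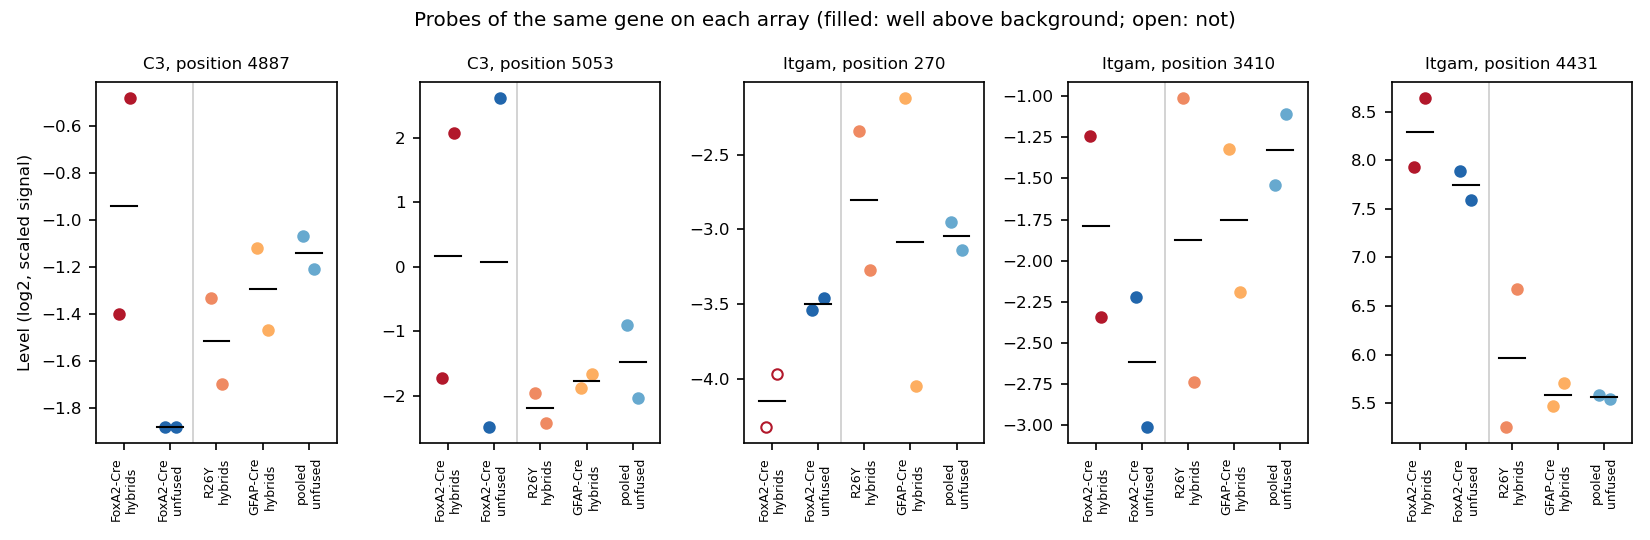
Level (log2 of the signal over the array's 75th percentile) of the 2 C3 probes and the 3 Itgam probes on the 10 arrays, each panel with its own scale; points are arrays, filled where well above background, and black lines group means. C3 at 5053 reaches 2.07 and 2.62 on replicate 2 of the FoxA2-Cre groups, where the probe at 4887 gives -0.48 and -1.88.

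C3ar1 encodes the receptor for the anaphylatoxin C3a, a fragment released when C3 is split. It was at -4.84 and -5.38 in FoxA2-Cre hybrids, not well above background on either array, against 1.95 and -2.43 in FoxA2-Cre unfused cells. Both hybrid arrays were below both unfused arrays, and the 2 unfused arrays were themselves 4.38 apart on the log2 scale. The fitted log2 difference was -4.87 ± 1.31, in which the hybrids enter with signals not well above background. Its SE draws on the spread of all 5 groups, moved towards that typical of all genes. The SD of C3ar1 was 3.1 in FoxA2-Cre unfused cells and 0.38 in FoxA2-Cre hybrids. For a bound, each hybrid array was taken at its own signal or its background level, whichever was higher, which kept -4.84 for replicate 1. By this, C3ar1 was at least 15.1-fold lower in FoxA2-Cre hybrids. The bound was 68.8-fold against unfused replicate 1 alone and 3.31-fold against unfused replicate 2 alone.

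C3ar1 was measurable in both other hybrid types. It was at -0.3 and 0.63 in R26Y hybrids and at 0.58 and -1.17 in GFAP-Cre hybrids, against -0.53 and -0.5 in pooled unfused cells. R26Y hybrids were higher by 0.68 ± 1.31 with no overlap, and GFAP-Cre hybrids by 0.22 ± 1.31 with overlap. The fitted FoxA2-Cre difference was -2.26 after normexp background correction and -2.93 in the authors' log2 matrix.

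C5ar1 encodes the main receptor for the anaphylatoxin C5a and was close to background. It was at -5 and -5.54 in FoxA2-Cre hybrids and -6.89 and -6.2 in FoxA2-Cre unfused cells, with none of the 4 arrays well above background. It was at -5.9 and -8.31 in R26Y hybrids and -6.07 and -7.21 in GFAP-Cre hybrids, against -5.32 and -5.99 in pooled unfused cells. The second array of each of these hybrid types was not well above background, and both pooled unfused arrays were. The GFAP-Cre hybrid arrays were below those of the unfused cells without overlap, by -0.99 ± 0.86 on the log2 scale.

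Counted over the 8 genes, each by its brightest probe, 0 passed the threshold in any comparison, and nothing is read from these counts where unfused cells enter. In FoxA2-Cre hybrids against FoxA2-Cre unfused cells 0.537% of all genes passed. In R26Y hybrids and in GFAP-Cre hybrids against pooled unfused cells, and in all hybrids against unfused cells, it was 0%, with 452, 525 and 1000 genes at an unadjusted limma p under 0.05. For the difference between slides in the hybrid effect it was 0.0931%. Of the 8, arrays did not overlap for 4 in FoxA2-Cre hybrids, against 37.1% of all genes. These were C1qb and Itgam by its CA repeat probe, with the hybrids higher, C3ar1, with the hybrids lower, and C5ar1, for which none of the 4 arrays was well above background, so that no direction is given. In R26Y hybrids they were 2, C4b and C3ar1, against 30% of all genes, and in GFAP-Cre hybrids 3, C1qc, C4b and C5ar1, against 34.5%. Among these, C4b on the first GFAP-Cre hybrid array and C5ar1 on the second were not well above background. The median log2 difference of the 8 was 0.5 in FoxA2-Cre, -0.13 in R26Y and 0.07 in GFAP-Cre hybrids, beside 0.36, -0.25 and 0.04 for all genes. The 0.5 lies between C1qb at 0.45 and Itgam at 0.55 by its CA repeat probe, whose signal is not read as Itgam. Of the genes above it, C1qc and C5ar1 were well above background on none of the 4 arrays. Nothing is read from these medians.

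**Figure D3:**
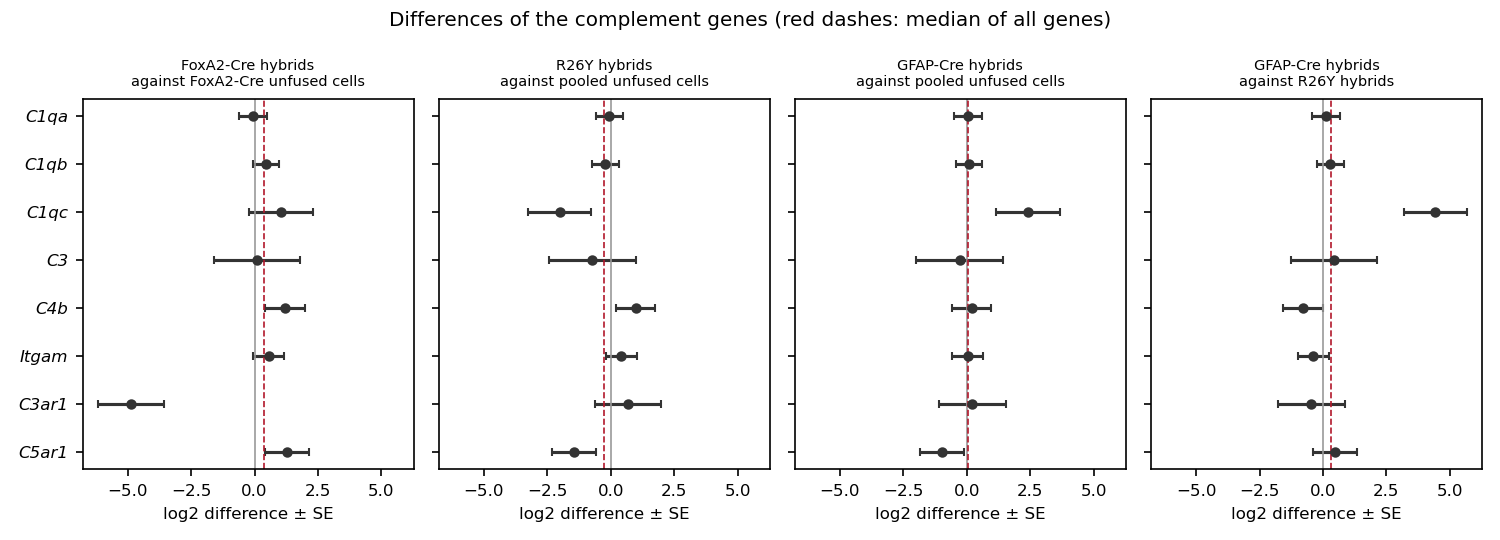
log2 difference ± SE (horizontal axis, spread pooled over the 5 groups and moved towards that of all genes) of the 8 genes in 4 comparisons of 2 arrays against 2. The grey line is 0 and the red dashes the median of all genes. C3ar1 at -4.87 in FoxA2-Cre hybrids and C1qc at 4.42 in GFAP-Cre against R26Y hybrids lie farthest from 0, both fitted with signals not well above background on 1 side.

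The rest of the complement system was followed through 43 other genes, listed with earlier results known, of which 39 were tested. None passed the adjusted limma threshold in any of the comparisons, in either direction. At an unadjusted limma p under 0.05 there was 1 of 39 in FoxA2-Cre hybrids, against 8.61% of all genes, 0 in R26Y hybrids, against 1.4%, and 1 in GFAP-Cre hybrids, against 1.63%. In GFAP-Cre against R26Y hybrids there was 1, against 2.78% of all genes. Their median log2 difference was 0.14 in FoxA2-Cre, -0.49 in R26Y and 0.04 in GFAP-Cre hybrids, beside the medians of all genes above. In R26Y hybrids 32 of the 39 were below 0, against 64% of all genes, among them all 11 tested regulators, with a median of -0.63. These values rest on R26Y hybrids replicate 2. By replicate 1 alone 18 of the 39 and 2 of the 11 regulators were below the mean of pooled unfused cells, against 47.9% of all genes, and by replicate 2 alone 32 and 11 were, against 65.6%. The regulators' median was 0.27 by replicate 1 and -1.37 by replicate 2, beside 0.02 and -0.53 for all genes. R26Y hybrids replicate 2 had 27 of the 39 well above background and replicate 1 had 34, against 35 and 37 in pooled unfused cells.

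Among the early components, the largest negative values in FoxA2-Cre hybrids were those of C2, the C4 partner in the C3-splitting enzyme, and C1ra, a protease of the C1 complex. C2 was at -6.89 and -4.64 in FoxA2-Cre hybrids, neither well above background, against -4.3 and -1.15 in FoxA2-Cre unfused cells, at least 2.85-fold lower with an adjusted limma p of 0.516. C1ra was at -6.83 and -5.79 in FoxA2-Cre hybrids, against 1.79 and -6.48 in FoxA2-Cre unfused cells, where replicate 1 alone was well above background. Replicate 1 of the FoxA2-Cre unfused cells was the higher array for C3ar1 and C1ra, and replicate 2 was the higher one for C2.

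The lectin pathway holds soluble sugar-binding starters of the cascade. Colec10 was at -1.7 and -8.83 in R26Y hybrids, against -1.3 and -1.29 in pooled unfused cells, and Mbl2 was at -3.13 and -8.09, against -3 and -2.85. For both genes R26Y hybrids replicate 1 was close to the unfused cells and replicate 2 was not well above background. Mbl1 was at -3.05 and 0.62 in R26Y hybrids, against -2.99 and -2.89 in pooled unfused cells, with replicate 2 as the high array. Of the other genes at the ends of the ranking, Fcna, a ficolin of the lectin pathway, differed by 1.59 ± 1 in GFAP-Cre hybrids from pooled unfused cells. For Fcna the second unfused array was not well above background. The regulator Cd59a differed by 0.98 ± 0.79 in the same comparison, and Cfi, the protease that inactivates C3b, by -1.43 ± 1.26. C8a, a subunit of the membrane attack complex, differed by -1.63 ± 1.29 there, with GFAP-Cre hybrids at -4.15 and -8.78 against -4.95 and -4.71 in pooled unfused cells. For Cfi and C8a the second GFAP-Cre array was not well above background, while the first was above both unfused arrays. Both negative values thus rest on that second array. In R26Y hybrids the complement receptor gene Cr2 differed by 0.89 ± 0.7 and C8g, another C8 subunit, by 0.59 ± 0.51. The terminal component C9 was not well above background on any FoxA2-Cre array. Cfb, factor B of the alternative pathway, differed by -0.9 ± 0.59 between GFAP-Cre and R26Y hybrids. C5ar2, another C5a receptor, was at -1.56 and -1.41 in GFAP-Cre hybrids, against -1.76 and -6.51 in R26Y hybrids, the second R26Y array not well above background.

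Itgax encodes CD11c, the alpha chain of the related receptor CR4. It was at -3.85 and -3.04 in GFAP-Cre hybrids, against -5.74 and -8.39 in pooled unfused cells, the second unfused array not well above background. The log2 difference was 3.62 ± 0.93, with an adjusted limma p of 1. Against R26Y hybrids, at -7.09 and -7.67 and not well above background, it was at least 11.2-fold higher with an adjusted limma p of 1. The GFAP-Cre arrays did not overlap with either group, as for C1qc. Over all genes, arrays did not overlap for 34.5% against pooled unfused cells and for 27.7% against R26Y hybrids. Itgb2, the beta chain that CD11b and CD11c share, differed by -0.28 ± 0.83 between GFAP-Cre hybrids and pooled unfused cells. In FoxA2-Cre cells Itgax was well above background on none of the 4 arrays.

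**Figure D4:**
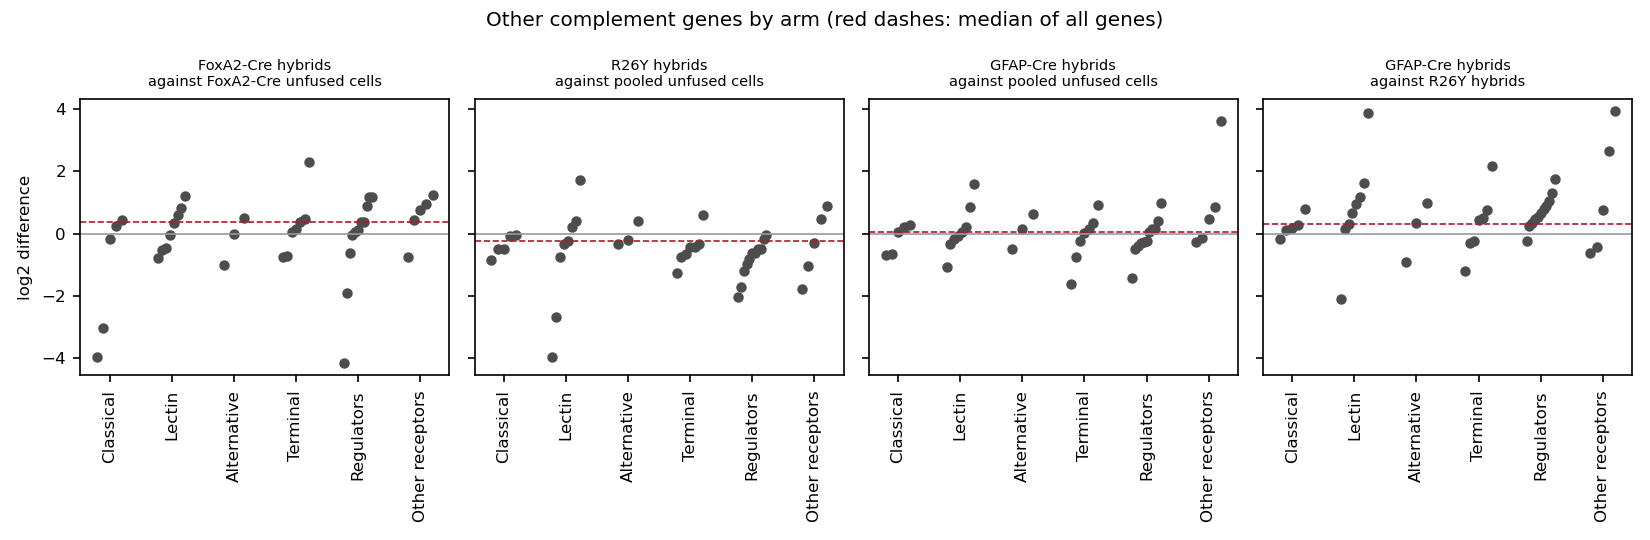
log2 difference (vertical axis) of the 39 other complement genes tested, by arm of the pathway, in 4 comparisons; points are genes, sorted within an arm, and red dashes the median of all genes. In R26Y hybrids all 11 regulators lie below 0, where 2 of 11 do by replicate 1 alone and 11 by replicate 2 alone. Itgax stands at 3.62 in GFAP-Cre hybrids, with pooled unfused replicate 2 not well above background.

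Markers of other cell types were read beside these values. Of 12 neutrophil genes, Mpo and S100a9 fell in FoxA2-Cre hybrids against FoxA2-Cre unfused cells, at least 60.6-fold for Mpo and at least 201-fold for S100a9, with adjusted limma p of 0.0257 and 0.0468, and the other 10 did not pass. Over all genes 0.537% passed in that comparison, and in the fit of that slide alone 0 genes of the whole array passed. Hybrids and unfused cells lie in different rows of that slide, so row and cell kind cannot be told apart. Mpo encodes myeloperoxidase and S100a9 a subunit of calprotectin. Lcn2, the neutrophil protein lipocalin 2, was at 0.07 and -0.32 in FoxA2-Cre hybrids, against 4.7 and 2.7 in FoxA2-Cre unfused cells. The list's summed linear level was 1.38 to 1.5 in FoxA2-Cre hybrids, against 29.5 to 45.6 in FoxA2-Cre unfused cells. On the FoxA2-Cre unfused arrays Mpo was at 1.8 and 1.56 and S100a9 at 3.2 and 3.62. The part of neutrophils in the C3ar1 and C2 values was not tested.

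Of 12 microglia genes, 11 were tested and 0 passed in any comparison. Their summed level was 101 to 189 in FoxA2-Cre hybrids, against 28.1 to 34.4 in FoxA2-Cre unfused cells. In that comparison 8 of the 11 were above 0 and 3 below, against 36.6% of all genes below 0. In the hybrids 5 to 8 of the 11 were well above background, against 6 to 8 in the unfused cells. Trem2 was at 4.61 and 6.27 in FoxA2-Cre hybrids, against -4.35 and 3.2 in FoxA2-Cre unfused cells. Together with Cx3cr1 and Siglech, Trem2 makes up most of the hybrids' summed levels, which thus do not describe the whole list. Cx3cr1, the fractalkine receptor, was at 4.65 and 6.3 in FoxA2-Cre hybrids, against 3.24 and 2.43 in unfused cells, and Csf1r, the receptor that microglia need to survive, was at 1.89 and 0.48, against 2.09 and 1.46. Siglech, a microglial lectin, was at 4.7 and 4.95, against 4.05 and 3.4. The part of microglia in the C3ar1 values was not tested. In GFAP-Cre hybrids, where C1qc and Itgax were highest, the microglia sum was 11.5 to 14.4, against 10.1 to 40.5 in R26Y hybrids and 10.2 to 14.4 in pooled unfused cells, and its part in these values was not tested.

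Ptprc, the pan-leukocyte antigen CD45, was well above background on all 10 arrays, between -3.34 and -2.67. Of monocyte and macrophage genes 9 of 10 were tested, with summed levels of 0.8 to 1.63 in FoxA2-Cre hybrids, against 0.869 to 1.67 in FoxA2-Cre unfused cells. No gene of the lists for monocytes, stem and progenitor cells, astrocytes, neurons, oligodendrocytes, endothelium, erythroid or lymphoid cells passed in any comparison. Gfap had mean levels of -3.81 in GFAP-Cre hybrids and -2.67 in pooled unfused cells, and Sall1, Gata2, Slc1a3, Sox9, Syt1, Olig1 and Pdgfrb were dropped by the filter on dim probes.

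**Figure D5:**
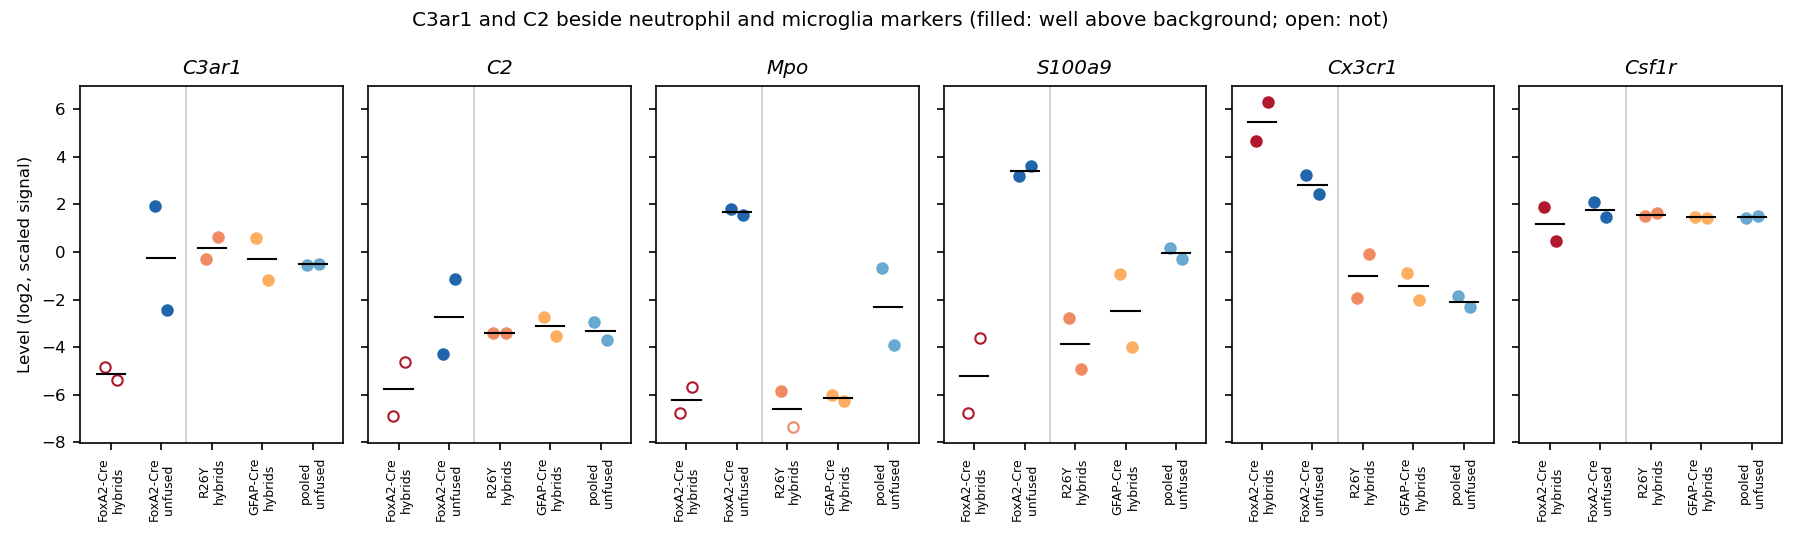
Level (log2 of the signal over the array's 75th percentile, same scale in all panels) of C3ar1, C2, the neutrophil markers Mpo and S100a9 and the microglia markers Cx3cr1 and Csf1r on the 10 arrays; points are arrays, filled where well above background, and black lines group means. In FoxA2-Cre hybrids C3ar1, C2, Mpo and S100a9 are all open points, while Cx3cr1 is at 4.65 and 6.3.

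The genes whose values ran most alike were taken from 14306 named genes well above background on at least 5 arrays, by Pearson's r over the 10 arrays with slide means subtracted. For the mean of C1qa, C1qb and C1qc these were Acoxl (0.978), Rpusd2 (0.975), Timm9 (0.965), Ncstn (0.962) and Fmn1 (0.961). For C3ar1 they were C79015 (0.982), Ces5a (0.966), Tspan2 (0.965), Oraov1 (0.962) and Cnga2 (0.961). In the mean of the C1q chains C1qc weighs most, as its levels varied most, and it was well above background on 5 of the 10 arrays. For C3ar1, FoxA2-Cre unfused replicate 1, at 1.95, lay farthest from its slide's mean and weighs most in r. With 10 arrays and so many genes these values of r are a description of the arrays.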

How the data were processed

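RNA of sorted cells was amplified as whole-transcriptome cDNA, and 500 ng was labelled with Cy3 for 1-colour Agilent mouse arrays, per the labels' protocols. The deposited processed signal, mean signal and background are intensities made by Agilent Feature Extraction 10.7.3.1, per the file headers, with 0 or 1 marks for spots well above background and for non-uniform spots. A log2 matrix deposited by the authors has a median of 7.38 on the 6 arrays of one slide and 6.26 on the 4 FoxA2-Cre arrays, so slides were scaled apart, and its tool is not given in the sources used here. All arrays share 1 scan day, and no spot was saturated.

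Of 62976 spots, 59305 were not controls. Values are log2 of the processed signal minus the array's 75th percentile over the 9472 spots that were bright, by the mark for background, on each of the 10 arrays. Non-uniform spots were left out, spots of a probe averaged, and a gene was represented by its brightest probe. The number of arrays limits the precision. Gene names came from the arrays and, by RefSeq accession, from a gene table of which only the names were used (27428 of 55681 probes matched).

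limma 3.58.1 in R 4.3.3 fitted 5 group means (5 residual degrees of freedom) or, for all hybrids, cell kind plus recipient set (7), with two-sided tests, Benjamini-Hochberg adjustment over 32209 genes and a threshold of 0.05. The fit was tested on simulated data. At-least folds concern groups with no array well above background. Each array of such a group was taken at its own signal or its background level, whichever was higher. The background level is the lowest signal of any probe well above background on that array. Members, gene lists and rules were chosen with earlier results of these data known. By these rules the text names every member probe, the 3 highest and 3 lowest other complement genes of a comparison (some are not reported here), 5 genes most alike, and the brightest markers of the neutrophil and microglia lists. Complement genes other than the members were 43, and markers formed lists for microglia, monocytes, neutrophils, stem and progenitor cells, astrocytes, neurons, oligodendrocytes, endothelium, erythroid and lymphoid cells. Errors of genes with several probes come from a fit of every probe. Mpo, Cx3cr1, Trem2, Gfap, Ptprc and Itgb2 were named after their values were seen.

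Replicate numbers were not used as pairs: deviations of same-numbered arrays correlated between -0.07 and 0.07 over all genes. Many of these genes were dim on FoxA2-Cre arrays, so the correlations cannot decide whether samples were paired. Alternatives were normexp, quantile scaling, a percentile over all probes, the authors' matrix, other filters, the mean of a gene's probes, blocks for replicate number, slide row and slide column, each slide alone, array weights, and each array left out; fits by single probes, other probes of C3 and Itgam, and each R26Y hybrid replicate alone were added after seeing the data.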

Additional observations from a re-analysis of the deposited data

How the results depend on the processing

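In FoxA2-Cre hybrids against FoxA2-Cre unfused cells 173 genes passed (17 higher, 156 lower). The count was 112 after normexp, 104 with array weights and 106 with the replicate block. It was 0 with slide row as a block, with slide column as a block and on the own slide alone, where 2336, 1336 and 1409 genes had an unadjusted limma p under 0.05. On that slide hybrids lie in one row and unfused cells in the other, so row and cell kind cannot be told apart. The authors' matrix gave 168 genes (38 higher, 130 lower). For the difference between slides in the hybrid effect 30 genes passed, against 11 after quantile scaling, 56 in the authors' matrix, and 0 with the replicate block, slide row or slide column. Leaving out 1 array gave 60 to 559 genes for FoxA2-Cre hybrids, 0 to 2319 for R26Y hybrids against pooled unfused cells, 0 to 2196 for GFAP-Cre against R26Y hybrids and 0 to 154 for the difference between slides. The 2319 and 2196 came without R26Y hybrids replicate 1, and the 559 and 154 without FoxA2-Cre unfused cells replicate 2; the cause was not tested. The group left with 1 array is then assumed to vary like the others. Members past the threshold ranged over 0 to 1 in FoxA2-Cre hybrids (C3ar1, without unfused replicate 2) and 0 to 1 in GFAP-Cre against R26Y hybrids (C1qc, without R26Y replicate 1, where the array left is not well above background), and were 0 under every other alternative run, the replicate block included. The fitted FoxA2-Cre difference of C3ar1 ran between -7.06 and -2.26 over 24 alternatives. In most of these it was -4.87 as in the main fit, since they cannot change a difference between these 2 group means. Its constant sign is therefore no sign of robustness there. The difference of C3 ran between -2.45 and 2.65 and that of Itgam between -0.65 and 0.9. C1qa in FoxA2-Cre hybrids had the other sign in 4 alternatives, and C1qc in R26Y hybrids was at 0.23 with slide column as a block. The median of all genes in FoxA2-Cre hybrids was 0.36, against 0.71 after normexp, 0.12 after quantile scaling and 0.03 in the authors' matrix, and in R26Y hybrids -0.25, against 0.01, 0.04 and 0.01. All hybrids together and the difference between slides have no fit on 1 slide. Probes not well above background, most frequent on FoxA2-Cre arrays, limit C1qc, C5ar1 and C3ar1 there.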
